A study of Mus musculus with 6 samples.

Results

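The p200 genes of mouse chromosome 1 encode the PYHIN proteins, a family of DNA-binding proteins named for the pyrin and HIN domains that its members combine. The 10 genes described here were taken by symbol from the 22386 genes of the deposited table: Aim2, Ifi203, Ifi204, Ifi205, Ifi206, Ifi207, Ifi208, Ifi209, Ifi211 and Mndal. They were chosen by family membership together with their known log2 fold changes of shACSL4 over shControl, so that contrast is given as a description and was not tested in them. In the deposited coordinates (GRCm39) the genes lie within chr1:173178445-173859376, a stretch of 680932 bases, and 9 of the 10 had enough reads for the fit that covered 14289 genes.

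The HIN domain binds double-stranded DNA, and the pyrin domain joins other pyrin-domain proteins, such as the inflammasome adaptor ASC. In mouse, Aim2 detects DNA in the cytosol and assembles with ASC to activate caspase-1, while p204, the product of Ifi204, has been described both as a DNA sensor upstream of STING and as a nuclear regulator of transcription. Many of the genes are induced by interferon, and the family is known for its local duplication in mouse, which left several near copies side by side.

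The cells were MC38, a mouse colorectal cancer line. One group carried a short hairpin RNA against Acsl4 (shACSL4, genotype given as Acsl4 knockdown, 3 libraries), and the other carried a control hairpin (shControl, genotype given as WT, 3 libraries). Acsl4 encodes an enzyme that couples long polyunsaturated fatty acids to coenzyme A, and the comparison asks how its reduction alters the transcriptome. All cells were grown alike in DMEM with serum, without a stated treatment, and the series text calls the cells knockouts. The sources used here state neither how many hairpin sequences there were nor whether the cells were clones or a pool.

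Library totals ranged between 41134232 and 47127672 counts in shACSL4, and between 40911698 and 42058293 in shControl. Acsl4 had 131.7, 127.7 and 126.7 CPM (counts scaled to library size, here with TMM factors) in shACSL4 1, 2 and 3, against 191.1, 194.2 and 203.6 CPM in shControl 1, 2 and 3, a log2 fold change of -0.61 (SE 0.05, adjusted p = 3.84e-06 by edgeR's quasi-likelihood test). Nothing states that replicates came from separate cultures, so p-values measure only the spread between libraries. Epithelial markers were nearly absent from these cells: Krt8 averaged 0.843 ± 0.212 CPM in shACSL4 and 0.733 ± 0.129 CPM in shControl (SD, n = 3 each), and Epcam and Cdx2 had no row used here. The 6 epithelial markers with a row summed to between 2.35 and 3.50 CPM in shACSL4 and between 1.59 and 2.07 CPM in shControl, and Krt20 among them passed the test as higher. The 11 leukocyte markers with a row summed to between 12.6 and 13.1 CPM in shACSL4 and between 6.34 and 8.64 CPM in shControl. Of these, Lyz2 and Cd74 passed the test as higher, whereas the defining marker Ptprc stood at 0.0618 CPM in shACSL4 and 0.0158 CPM in shControl. The 3 endothelial markers summed to between 0.489 and 0.531 CPM in shACSL4 and between 0.441 and 1.07 CPM in shControl. The 5 fibroblast markers summed to between 724 and 899 CPM in shACSL4 and between 758 and 859 CPM in shControl, with Pdgfra higher and Dcn lower. Nearly all of that sum came from Dcn (523 CPM in shACSL4, 668 in shControl) and Pdgfra (264 and 123 CPM). The other markers of the list were nearly absent: Col1a1 averaged 0.250 CPM in shACSL4 and 0.256 in shControl, Col1a2 0.459 and 0.250, and Lum 0.667 and 1.04. The part of any of these in the p200 levels was not tested.

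The promoters of the family are shown first because most of them hold the same short element close to the start. Sequences are RefSeq promoters of build GRCm38.p6, not the GRCm39 build of the counts, and 9 of the 10 members matched an entry, Ifi204 being the exception. Each line is a stretch of 100 bases read 5′ to 3′ on the strand of the gene. It ends at the base before the annotated start, except for Ifi205, where it ends 60 bases earlier still, and for Ifi203 and Mndal the start shown is that of the promoter with the element. Capitals mark matches to GAAANNGAA, the core of the interferon-stimulated response element (ISRE), an element known from genes that respond to type I interferon.
Ifi206 (chr1:173491319-173491418, minus strand): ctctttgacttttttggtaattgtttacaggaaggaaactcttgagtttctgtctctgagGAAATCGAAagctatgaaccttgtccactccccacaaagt
Ifi208 (chr1:173673565-173673664, plus strand): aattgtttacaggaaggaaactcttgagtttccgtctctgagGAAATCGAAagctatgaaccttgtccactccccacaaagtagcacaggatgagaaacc
Ifi207 (chr1:173741810-173741909, minus strand): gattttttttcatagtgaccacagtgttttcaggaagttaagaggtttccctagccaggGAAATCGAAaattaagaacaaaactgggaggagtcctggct
Mndal (chr1:173880188-173880287, minus strand): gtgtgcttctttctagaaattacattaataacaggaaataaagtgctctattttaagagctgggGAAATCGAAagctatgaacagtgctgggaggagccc
Ifi203 (chr1:173942493-173942592, minus strand): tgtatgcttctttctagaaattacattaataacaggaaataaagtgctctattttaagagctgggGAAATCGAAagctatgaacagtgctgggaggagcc
Ifi211 (chr1:173913047-173913146, minus strand): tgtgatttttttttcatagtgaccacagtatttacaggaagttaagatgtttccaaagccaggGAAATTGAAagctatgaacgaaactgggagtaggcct
Ifi205 (chr1:174031816-174031915, minus strand): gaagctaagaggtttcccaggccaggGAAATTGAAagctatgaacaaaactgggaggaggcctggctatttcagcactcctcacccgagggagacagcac

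These 7 members were the ones with a match within 250 bases before to 50 bases after a start, when both strands were searched. In all 7 a match lay on the strand of the gene, and the same pattern was found in 8.56% of 32851 RefSeq promoters. The first base of the match lay 40 bases before the start in Ifi206, 58 in Ifi208, 41 in Ifi207, 36 in Mndal, 35 in Ifi203 and 37 in Ifi211. Ifi205 held it farther out, 134 bases before the start. Mndal also had a match on the opposite strand at its other start, and Ifi205 had another on the opposite strand.

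The 2 free letters of the pattern were not spread over many combinations. Ifi206, Ifi208, Ifi207, Mndal and Ifi203 all held GAAATCGAA, while Ifi211 and Ifi205 held GAAATTGAA. The exact letters GAAATCGAA, chosen after the member promoters had been read, occurred in 30 of 32851 promoters (0.0913%). These 30 include the promoters of the 5 members and of 2 other family genes, so that share is not independent of the family. The stretches around the element were partly copies of one another: across 36 pairs of 9 family promoters, the 20 bases on each side were identical at a median of 53.75% of positions, with a range of 37.5% to 100%. Mndal and Ifi203 reached 100%, so matches in the family are not separate occurrences. No member held TTCNNNGAA, the gamma-activated site pattern, which can share bases with GAAANNGAA and was found on either strand in 8.30% of all promoters.

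Ifi209 and Aim2 had no match to the ISRE core at the starts listed. Allowing for the shift between builds, the Aim2 start listed appears to lie inside the gene as counted, not at its 5′ end. Sequence before any other Aim2 start was not searched. Both genes are set beside Ifi214, a family gene outside the 10, because the upstream stretches of Ifi214 and Ifi209 nearly coincide.
Ifi214 (chr1:173535958-173536057, minus strand): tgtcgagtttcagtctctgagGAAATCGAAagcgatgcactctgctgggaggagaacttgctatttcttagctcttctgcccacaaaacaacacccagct
Ifi209 (chr1:173630759-173630858, plus strand): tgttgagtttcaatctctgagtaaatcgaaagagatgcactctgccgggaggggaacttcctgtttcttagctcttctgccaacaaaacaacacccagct
Aim2 (chr1:173420504-173420603, plus strand): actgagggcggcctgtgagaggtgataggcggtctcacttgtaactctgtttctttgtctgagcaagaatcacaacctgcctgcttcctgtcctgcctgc

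Ifi214 and Ifi209 were identical at 91 of these 100 bases and differed at 9. A single difference, G22T, fell inside the 9-base core, with positions counted from 1 at the 5′ end of the stretch, the Ifi214 base first and the Ifi209 base last. A match is a string of letters only, and binding at it was not measured.

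**Figure D1:**
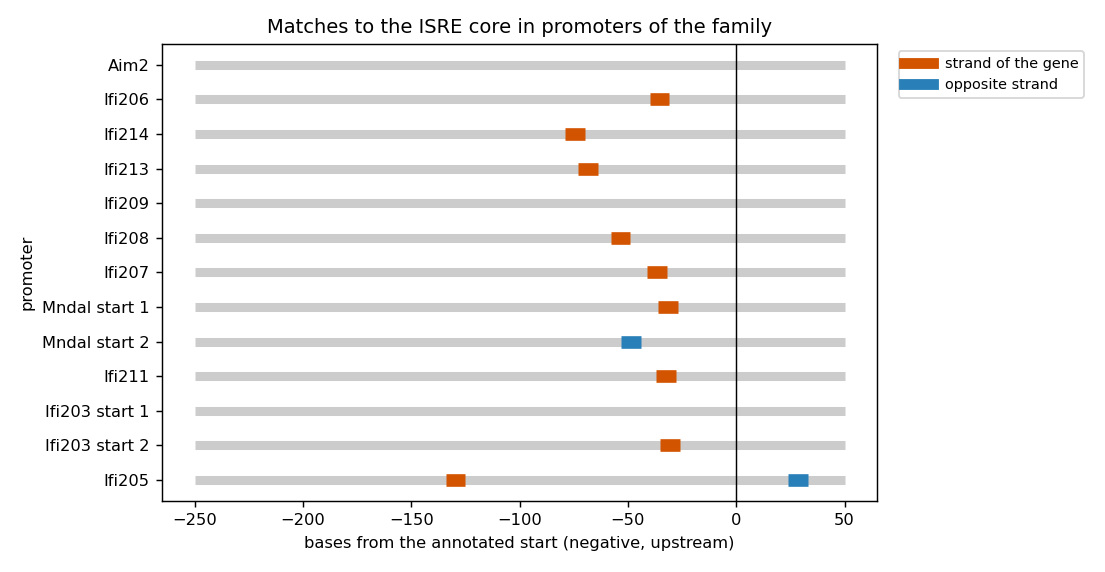
Matches to GAAANNGAA in RefSeq promoters of the p200 family, one row per promoter in chromosome order, with distance from the annotated start in bases on the horizontal axis. Grey bars span 250 bases before to 50 bases after the start, and coloured blocks are matches on the strand of the gene or the opposite strand. In Ifi206, Ifi207, Mndal, Ifi211 and Ifi203 a match begins 35 to 41 bases before a start, and Aim2 and Ifi209 have none.

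In the libraries, 8 of the 10 genes were higher in every shACSL4 library than in any shControl library, and the other 2, Aim2 and Ifi208, overlapped. Among all 14289 genes tested, 22.0% were higher in shACSL4 with no overlap, and 15.4% were called higher and 13.6% lower by edgeR at an adjusted p of 0.05. The median log2 fold change was 4.00 over the 9 members fitted and -0.01 over all genes tested. Because the members were picked with this contrast known, nothing is read from these counts. In bulk RNA, a change in the number of cells that express a gene and a change in RNA per cell cannot be told apart.

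Among the DNA sensors, Ifi204 (ENSMUSG00000073489, chr1:173574859-173594509, minus strand) had 8.11, 4.08 and 13.3 CPM in shACSL4 1, 2 and 3, against 0.712, 0.294 and 0.339 CPM in shControl 1, 2 and 3. The lowest shACSL4 library was thus well above the highest control library. Its mean was 8.51 ± 4.65 CPM in shACSL4 and 0.448 ± 0.230 CPM in shControl (SD, n = 3 each), an 18.8-fold difference (log2 4.24, SE 0.61).

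Aim2 (ENSMUSG00000037860, chr1:173178445-173293606, plus strand), the inflammasome sensor, did not share that pattern. It had 17.1, 21.1 and 17.3 CPM in shACSL4 1, 2 and 3, against 20.4, 17.9 and 21.6 CPM in shControl 1, 2 and 3. The groups overlapped, with means of 18.5 ± 2.25 CPM in shACSL4 and 19.98 ± 1.91 CPM in shControl and a log2 fold change of -0.11 (SE 0.11). Only 2444 bases separate the end of Aim2 from Ifi206. The start of Aim2 also overlaps Cadm3, a cell adhesion gene on the other strand, but Cadm3 averaged 0.0423 ± 0.0732 CPM in shACSL4 and was at 0 counts in all shControl libraries.

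Mndal, Ifi203, Ifi211 and Ifi205 form the centromere-distal end of the cluster, and the proteins of this group are known mainly as nuclear DNA-binding factors that modulate transcription and cell growth. Mndal (ENSMUSG00000090272, chr1:173676692-173708447, minus strand), described in mouse as a suppressor of cell growth, had 25.5, 23.6 and 43.9 CPM in shACSL4 1, 2 and 3, against 2.09, 1.91 and 4.50 CPM in shControl 1, 2 and 3. Library 3 was the highest of each group. The means were 31.0 ± 11.2 CPM in shACSL4 and 2.83 ± 1.45 CPM in shControl, a 10.9-fold difference (log2 3.45, SE 0.47).

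Ifi203 (ENSMUSG00000039997, chr1:173747973-173770238, minus strand) had 28.1, 17.6 and 43.8 CPM in shACSL4 1, 2 and 3, against 1.73, 1.54 and 2.32 CPM in shControl 1, 2 and 3. The shControl libraries lay close together, whereas the shACSL4 libraries were spread widely. Its mean was 29.8 ± 13.2 CPM in shACSL4 and 1.87 ± 0.408 CPM in shControl, a log2 fold change of 4.00 (SE 0.45).

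Ifi211 (ENSMUSG00000026536, chr1:173723911-173740612, minus strand) had 31.5, 20.04 and 46.1 CPM in shACSL4 1, 2 and 3, against 5.27, 5.34 and 6.80 CPM in shControl 1, 2 and 3. Of the 8 genes without overlap it had the highest control level per length, 3.23 ± 0.441 FPKM. The difference was 5.61-fold (log2 2.49, SE 0.36), with means of 32.5 ± 13.0 CPM in shACSL4 and 5.80 ± 0.867 CPM in shControl.

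Ifi205 (ENSMUSG00000054203, chr1:173839564-173859376, minus strand) was scarce, with 58, 57 and 155 counts in shACSL4 1, 2 and 3, against 1, 0 and 12 counts in shControl 1, 2 and 3. One control library held nearly all of the control reads. The means were 2.00 ± 1.11 CPM in shACSL4 and 0.105 ± 0.161 CPM in shControl, an 18.7-fold difference (log2 4.23, SE 0.80). Without shControl 3 the fitted log2 fold change was 7.07, so the size of this difference rests on that library.

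Ifi207 (ENSMUSG00000073490, chr1:173550993-173569313, minus strand), another nuclear member, lies next to Ifi204 and had 8.74, 6.52 and 19.5 CPM in shACSL4 1, 2 and 3, against 0.190, 0.392 and 0.339 CPM in shControl 1, 2 and 3. It was present at 8, 16 and 14 counts in shControl 1, 2 and 3, so its control level was above the floor of 3 counts in every library. The means were 11.6 ± 6.94 CPM in shACSL4 and 0.307 ± 0.105 CPM in shControl, a 37.6-fold difference (log2 5.23, SE 0.65) that became 24.7-fold without shACSL4 3.

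The proximal genes Ifi206, Ifi209 and Ifi208 were all scarce. Ifi206 (ENSMUSG00000037849, chr1:173296051-173318607, minus strand) had 56, 31 and 161 counts in shACSL4 1, 2 and 3, against 0, 0 and 2 counts in shControl 1, 2 and 3. With almost no reads in shControl, its size is best given as a ratio of summed counts scaled for depth, 118, with a 95% interval of 32.3 to 979 that covers counting error only. The fitted log2 fold change of 6.59 (SE 0.96) depends on the prior count of the fit. It was 5.77 without shACSL4 3 and 9.30 without shControl 3, which held the only control reads.

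Ifi209 (ENSMUSG00000043263, chr1:173458483-173475494, plus strand) had 1.45, 1.17 and 2.88 CPM in shACSL4 1, 2 and 3, against 0.617, 0.196 and 0.291 CPM in shControl 1, 2 and 3. Of the 8 genes without overlap it had the smallest difference with all libraries, 4.94-fold (log2 2.31, SE 0.46). Its means were 1.83 ± 0.917 CPM in shACSL4 and 0.368 ± 0.221 CPM in shControl. Without shControl 1 the difference was 7.46-fold in Ifi209 and 5.35-fold in Ifi211, so that rank rests on this library. The promoter of Ifi209 held no ISRE core match, and a link between matches and the size of the differences was not tested. Ifi208 (ENSMUSG00000066677, chr1:173501241-173525961, plus strand) had 0, 0 and 5 counts in shACSL4 1, 2 and 3, against 0 counts in every shControl library. A count of 0 allows up to 3 counts, or 0.0634 to 0.0734 CPM over the libraries, so a difference in Ifi208 was not detectable at this depth. Its promoter holds the same GAAATCGAA as that of Ifi206.

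**Figure D2:**
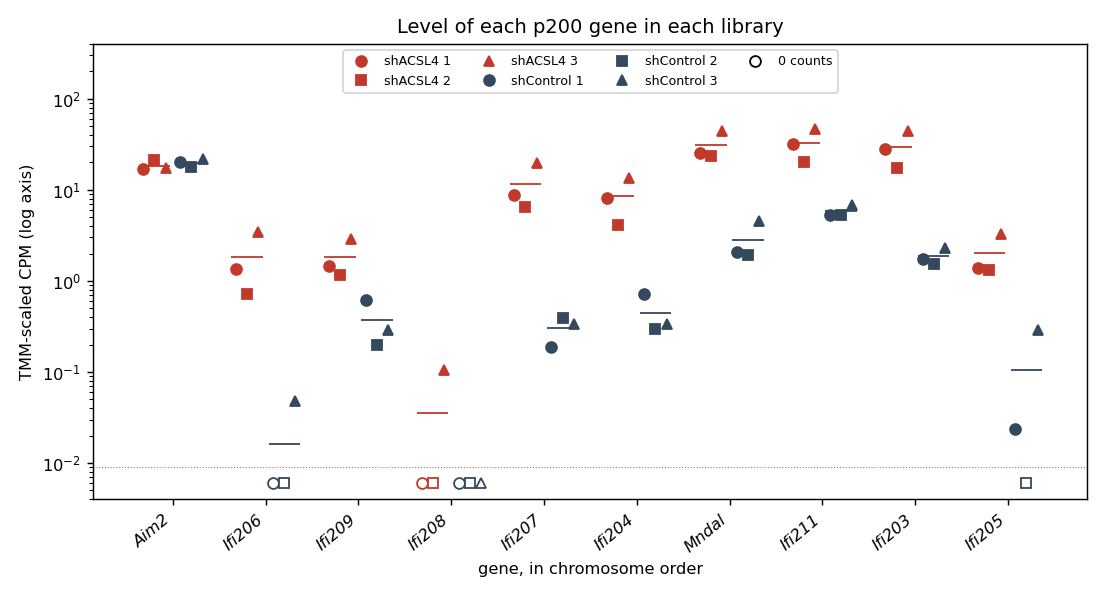
TMM-scaled CPM of each p200 gene in each library on a log axis, genes in chromosome order, with shACSL4 libraries in red to the left of shControl libraries in blue, marker shapes giving the replicate number and short lines the group means. Open markers below the dotted line are 0 counts. The groups overlap in Aim2 and Ifi208 and are apart in the other 8 genes.

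Several of these genes share sequence, and how reads that fit more than 1 gene were counted is not known. In the longest coding transcript of each gene (GENCODE M21), 56.9% of the 100-base stretches of Ifi211 and 41.5% of those of Ifi205 occurred in other genes. The share was 17.9% in Ifi209, with Ifi214 its only partner in the family, and 16.8% in Ifi204. It was 13.2% in Ifi206, whose family partners were Ifi208 and Ifi213, and 7.63% in Mndal. Ifi203 and Ifi207 were the most distinct of the genes without overlap, at 3.31% and 0.813%. Aim2 shared none of its 100-base stretches, 0 of 2740. Shares were larger for 50-base stretches: 72.9% in Ifi211, 49.6% in Ifi205, 35.1% in Ifi209, 30.2% in Ifi204, 27.2% in Mndal and 24.5% in Ifi206. They were 10.7% in Ifi203, 7.17% in Ifi207 and 0.789% in Aim2, which had no partner in the family.

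The libraries of shACSL4 differed among themselves in a repeated way. In 8 of the 9 members fitted, shACSL4 3 was highest, shACSL4 1 next and shACSL4 2 lowest, the exception being Aim2. The lower ranks were close in Ifi205 (58 counts in shACSL4 1, 57 in shACSL4 2), Ifi209 (60 and 50 counts) and Mndal (25.5 and 23.6 CPM). They were farther apart in the other members with this order. The same order held in 18.5% of all genes tested and in 6 of 20 interferon signalling genes. The highest shACSL4 library exceeded the lowest by a median of 2.47-fold over the members, against 1.13-fold over all genes tested. Among shControl libraries the median ratio was 2.06-fold over the members, many of them at few counts, and 1.17-fold over all genes. Genes with a library at 0 counts have no ratio, so this control median leaves out Ifi205 and Ifi206 and is understated. Acsl4 did not follow this order, since it was highest in shACSL4 1 and lowest in shACSL4 3. The members are not separate witnesses of this order, because they share promoter sequence, transcript sequence and libraries. The median log2 fold of the members over the shControl mean was 3.74 in shACSL4 1, 3.19 in shACSL4 2 and 4.55 in shACSL4 3.

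**Figure D3:**
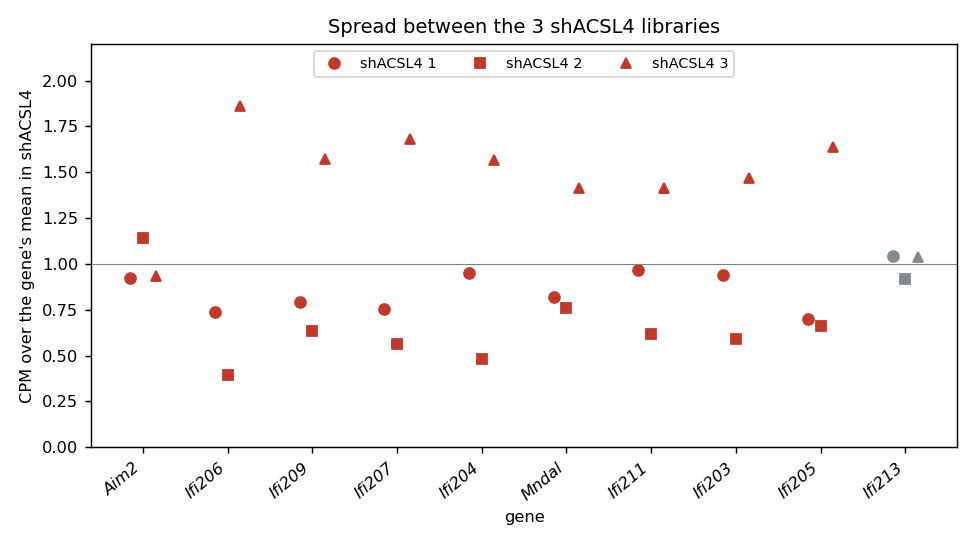
CPM in each shACSL4 library divided by the mean of that gene over the 3 shACSL4 libraries, for the 9 p200 genes fitted (red) and for Ifi213 (grey), with marker shapes giving the replicate. Library 3 is on top in every red gene except Aim2, while the Ifi213 libraries lie close together.

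Levels per length, in the FPKM of the authors, showed how the makeup of the family differed. The 10 genes summed to 40.1, 30.4 and 61.9 FPKM in shACSL4 1, 2 and 3, against 10.1, 9.10 and 11.7 FPKM in shControl 1, 2 and 3. Aim2 made up 13.4% ± 5.98 of that sum in shACSL4 and 55.2% ± 3.23 in shControl (SD, n = 3 each), while its own level was 5.30 ± 0.625 FPKM in shACSL4 and 5.68 ± 0.509 FPKM in shControl. Ifi211 made up 41.04% ± 3.74 in shACSL4 and 31.3% ± 1.79 in shControl. For Mndal the share was 19.8% ± 1.92 in shACSL4 and 7.37% ± 2.71 in shControl, and for Ifi203 it was 9.92% ± 1.12 in shACSL4 and 2.66% ± 0.206 in shControl. The shares follow from the levels that chose the members and add no separate evidence.

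In shACSL4 the order of mean FPKM was Ifi211, Mndal, Aim2, Ifi203, Ifi207, Ifi204, Ifi206, Ifi209, Ifi205 and Ifi208. The ranges over libraries did not overlap between Mndal and Aim2, between Ifi204 and Ifi206, and between Ifi205 and Ifi208, and all other neighbours in that order overlapped. In shControl the order was Aim2, Ifi211, Mndal, Ifi203, Ifi204, Ifi209, Ifi207, Ifi205, Ifi206 and Ifi208. There the 4 most abundant genes were apart from each other and from Ifi204, and from Ifi204 downward neighbours overlapped. Aim2 was thus the most abundant p200 transcript per length in shControl and the third in shACSL4.

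**Figure D4:**
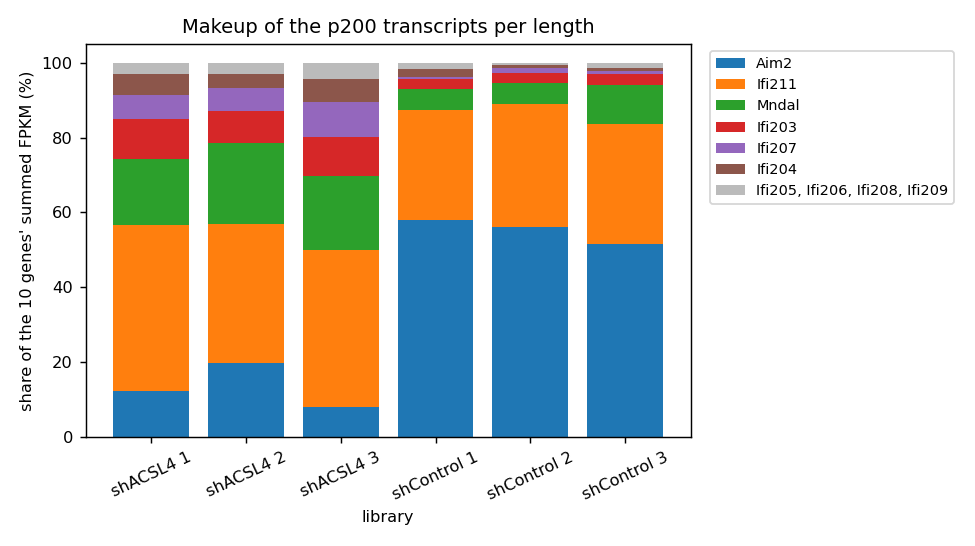
Share of each p200 gene in the summed FPKM of the 10 genes, in percent, for each library, with the 3 shACSL4 libraries left of the 3 shControl libraries. Aim2 takes 8.02% to 19.8% in shACSL4 and 51.7% to 58.0% in shControl.

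The neighbourhood was examined next, using genes within 1 Mb of the cluster, which had no part in the choice of the members. The deposited data listed 22 such genes. Of these, 9 were tested, and 4 were higher, 3 lower and 2 did not pass, where 15.4% of all genes tested were higher and 13.6% lower. The count of 7 was 4 without shACSL4 2 and 4 without shACSL4 3, with 2 higher and 2 lower each time, and without shControl 2 it was 5, with 2 higher. Ifi213 (ENSMUSG00000073491, chr1:173393849-173426840, minus strand), a family gene inside the cluster and outside the 10, had 5.46, 4.78 and 5.41 CPM in shACSL4 1, 2 and 3, against 0.9499, 0.832 and 0.993 CPM in shControl 1, 2 and 3. It rose 5.62-fold (log2 2.49, SE 0.18, adjusted p = 1.08e-06). Its promoter holds GAAATCGAA 73 bases before the start. Ifi214 had 4, 0 and 15 counts in shACSL4 1, 2 and 3, against 0, 2 and 2 counts in shControl 1, 2 and 3, and was too scarce to test. Ifi202b, Pydc3 and Pydc4, the other family genes looked for, had no row used here.

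Beyond the ends of the cluster the changes were mixed. On the Ifi205 side, Or10x1, an olfactory receptor gene 333312 bases away, fell, with a log2 fold change of -0.94 (adjusted p = 0.0166). Fmn2, a formin gene 470015 bases away, did not pass (log2 -0.65, SE 0.57, adjusted p = 0.424).

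On the Aim2 side the nearest gene with enough reads for the test was Dusp23, a phosphatase gene 717916 bases away, which was higher by 1.30 on the log2 scale (adjusted p = 0.022). Slamf8, a SLAM family receptor known from myeloid cells, rose to 5.01 ± 0.778 CPM in shACSL4, against 0.498 ± 0.0840 CPM in shControl (log2 3.32, SE 0.23, adjusted p = 5.83e-07). Tagln2, which encodes an actin-binding protein, was higher by 0.32 (adjusted p = 0.0277) and Pigm, a gene of GPI anchor synthesis, lower at -0.32 (adjusted p = 0.00184). The calls of Tagln2, Dusp23 and Or10x1 were lost when single libraries were left out, with adjusted p up to 0.0989, 0.0903 and 0.0691; shACSL4 2 and shACSL4 3 each ended all of these calls, shControl 1 ended those of Tagln2 and Or10x1, and shControl 2 those of Tagln2 and Dusp23.

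**Figure D5:**
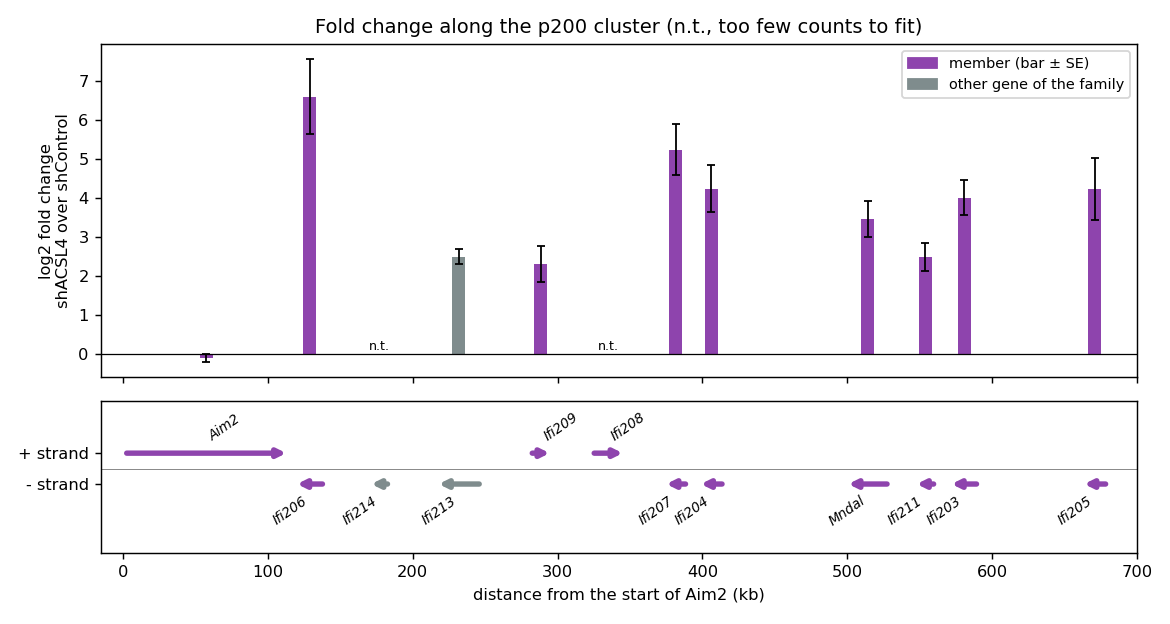
Log2 fold change of shACSL4 over shControl with its SE for each p200 gene against distance from the start of Aim2 in kb, with the extent and strand of each gene below. Purple marks the 10 genes, grey the other family genes Ifi213 and Ifi214, and n.t. genes with too few counts to fit. Aim2 sits near 0 beside Ifi206, at 6.59.

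Genes of the pathways in which PYHIN proteins act were counted next, from lists by function. Over all genes tested, 15.4% were higher and 13.6% lower with all libraries. The totals behind these shares also moved when single libraries were left out. In the DNA sensing list 19 genes were tested, of which 4 were higher and 5 lower in shACSL4. The count of higher genes was 4 with any single library left out, whereas that of lower genes was 2 without shACSL4 3, 2 without shControl 2, 3 without shACSL4 2, 3 without shControl 1 and 8 without shControl 3. The median log2 fold change was -0.11 and the mean 0.26, so median and mean differ in sign, against a median of -0.01 over all genes tested. Zbp1, whose product detects left-handed nucleic acids, was raised to 37.0 ± 19.0 CPM in shACSL4, against 1.03 ± 0.0459 CPM in shControl (log2 5.16, SE 0.55, adjusted p = 0.00301). Cgas, the enzyme that makes the second messenger cGAMP on binding DNA, rose by a log2 fold change of 0.35 (adjusted p = 0.00421). Sting1, its receptor and the partner described for p204, rose to 10.8 ± 1.54 CPM in shACSL4, against 5.656 ± 1.011 CPM in shControl (log2 0.93, adjusted p = 0.000653). Samhd1, a dNTP hydrolase, rose by 0.55 (adjusted p = 0.000233), and Xrcc5, which encodes Ku80, fell (log2 -0.28, adjusted p = 0.00277).

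In the inflammasome list 10 of 17 genes with a row were tested, 4 of them higher and 2 lower, with a median log2 fold change of 0.28. The shares over all genes tested were 15.4% higher and 13.6% lower. Without shACSL4 1, shACSL4 3 or shControl 2, 1 gene of the list was lower. Casp1, the protease that Aim2 activates, rose to 18.8 ± 1.21 CPM in shACSL4, against 6.22 ± 0.486 CPM in shControl (log2 1.59, SE 0.11, adjusted p = 5e-07). Casp4, an inflammatory caspase gene, rose (log2 1.22, adjusted p = 4.59e-06), as did Gsdmd, which encodes the pore-forming protein cut by these caspases (log2 0.67, adjusted p = 6.19e-05). Pycard, which encodes ASC, the adaptor between Aim2 and caspase-1, was close to the floor, at 0.122 ± 0.0262 CPM in shACSL4 and 0.136 ± 0.0953 CPM in shControl, and was not tested.

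In the interferon signalling list 12 of 20 tested genes were higher, against 15.4% of all genes tested, with a median log2 fold change of 0.34. With single libraries left out, 9 to 13 genes of the list were higher. The count was 9 without shACSL4 2 or shControl 1, and 13 without shControl 3. By edgeR 0 genes of this list were lower, also at an unadjusted p of 0.05, and the count was 0 with DESeq2 and limma-voom too. Irf3 stands in this list and in that of DNA sensing. Irf7, a transcription factor of interferon induction, rose to 62.7 ± 25.8 CPM in shACSL4, against 5.72 ± 1.51 CPM in shControl (log2 3.46, SE 0.43, adjusted p = 0.00582). Irf9, whose product is part of a complex that binds the ISRE, rose with a log2 fold change of 1.90 (SE 0.15, adjusted p = 9.27e-05). Stat3 rose by 0.70 (adjusted p = 2.38e-06) and Irf1 by 0.63 (adjusted p = 1.02e-05).

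Among 15 genes for proteins reported to bind or be regulated by p200 proteins, 2 were higher and 2 lower, with a median log2 fold change of 0.08. That is close to the shares over all genes tested, 15.4% higher and 13.6% lower. Without shControl 3, 4 genes of the list were higher, and without shACSL4 1 or shACSL4 3, 1 was lower. Id2, an inhibitor of basic helix-loop-helix factors and a described partner of p204, rose to 68.6 ± 2.47 CPM in shACSL4, against 30.6 ± 2.99 CPM in shControl (log2 1.16, SE 0.08, adjusted p = 3.85e-07). Ubtf, which encodes the ribosomal RNA transcription factor UBF that p204 binds, rose by 0.26 (adjusted p = 0.00295). Id1 fell (log2 -0.43, adjusted p = 0.00336). Jun, a subunit of AP-1, fell (log2 -0.21, adjusted p = 0.0152), but that call was lost without shACSL4 1 or shACSL4 3 (adjusted p = 0.0706 and 0.079).

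Genes most like the family across the 6 libraries were ranked by the root mean square difference of their centred log2 CPM profile from the mean profile of the members fitted, over 10106 genes of at least 5 CPM. The 8 closest were Trim34a (0.0702), Parp14 (0.110), Slfn8 (0.135), Trim30d (0.135), Ddx60 (0.142), Ube2l6 (0.177), Gbp7 (0.180) and Apol9b (0.191), where the median over all candidates was 1.25. Trim34a, the closest, had 17.7, 13.9 and 26.5 CPM in shACSL4 1, 2 and 3, against 3.25, 2.81 and 3.46 CPM in shControl 1, 2 and 3. Its likeness to the family, the order of libraries included, follows from how it was picked. Of the members themselves Ifi211 was nearest to their mean profile, at 0.101, and Aim2 was farthest, at 1.30.

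The annotation column of the deposited table could be read for 6 members, Ifi203, Ifi205, Ifi208, Ifi209, Ifi211 and Mndal. All 6 carried terms for binding of double-stranded DNA and for the response to interferon-beta.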

How the data were processed

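Total RNA of 6 MC38 libraries was depleted of ribosomal RNA and primed with random hexamers, per the labels' protocols. CASAVA, HISAT2, DESeq2 and build GRCm39 are named in the submitters' processing notes. The sources used here do not name the read counter, annotation release, strandedness or treatment of shared reads. Raw counts for each gene were deposited, with FPKM values that the authors made from them with a gene length not defined here. It also held the authors' log2 fold changes and p-values, which were not used for any result.

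Counts were fitted on the whole table in R 4.3.3 with edgeR 4.0.16 (robust quasi-likelihood, two-sided, group as the only term, TMM scaling, minimum count 10 and minimum total 15). P-values were adjusted by Benjamini-Hochberg over 14289 genes with a threshold of 0.05, and every adjusted p comes from this test unless another is named. No p-value is given for members. The workflow was tested on simulated data. A preset limit for the largest simulated differences failed once and was then changed to count only genes that passed the expression filter. Levels are means ± SD over 3 libraries. A count of 0 allows 3 counts, and floors and intervals cover counting error only. Profile likeness used a pseudocount of 0.5 CPM. Motifs were searched with Python 3.11.15 in RefSeq promoters. Of the 13 promoters of the family checked, the stretch after the start of 9 was found in a GENCODE M21 transcript.

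The members and all lists were chosen with earlier results of these data known. Genes named were all members, tested genes within 1 Mb, other family genes, up to 4 genes per list with the smallest adjusted p, Pycard, Casp1, Gsdmd, Cgas, Sting1, Irf7, Irf9, Irf1 and Acsl4 whatever their result, and the 8 most alike. A few genes that this rule takes are not reported here. Marker genes and Cadm3 were named for checks. Alternatives were other scalings, filters and tests (DESeq2 1.42.0 and limma-voom 3.58.1), a replicate block, each library left out, a window of 500 kb, and motifs on the strand of the gene. The exact motif letters were chosen after seeing the data.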

Additional observations from a re-analysis of the deposited data

How the results depend on the processing

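No log2 fold change recomputed for a member or named gene changed direction under any alternative run. The balance of higher and lower genes did turn in some counts. DNA sensing genes were 4 higher and 5 lower with all libraries, but 4 higher and 2 lower without shACSL4 3. Neighbours were 4 higher and 3 lower with all libraries, but 2 higher and 3 lower without shControl 2. The count of tested neighbours that changed, 7 within 1 Mb, ranged from 4 to 7 when single libraries were left out, being 4 without shACSL4 2 and 4 without shACSL4 3, and was 2 within 500 kb, where fewer genes were tested. The totals of changed genes in the lists and over all genes stayed within 1.5 times their main value. Counts by direction moved more: lower DNA sensing genes, 5 with all libraries, ranged from 2 to 8 with single libraries left out, higher binding partner genes from 2 to 4, and lower inflammasome and binding partner genes from 1 to 2 each. Totals over all genes moved too. Lower genes were 1950 with all libraries, 1252 without shACSL4 3 and 2659 without shControl 3. Higher genes were 2205, 1692 and 2818 in the same settings. Of 125 recomputed member values 121 moved by less than the spread between replicates. The exceptions were Ifi205 with limma-voom (log2 5.20) and without shControl 3 (7.07), and Ifi206 (9.30) and Mndal (3.96) without shControl 3. The cause was not tested. Squared differences between libraries, relative to counting error, had a median per gene of 4.12 for shControl 1 and 3. That median was 4.39 for shControl 2 and 3, 1.81 for shControl 1 and 2, and 2.44 to 2.67 within shACSL4. Without shControl 3, 5477 genes changed, against 4155 with all libraries. The count of members without overlap was 8 under each of the scalings, filters and left-out libraries tried.

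Whether replicate numbers pair the libraries is not stated and was not tested. The correlations of same-numbered libraries, as deviations from group means across genes, were 0.115, 0.0634 and 0.201 for numbers 1, 2 and 3. Both shACSL4 2 and shACSL4 3 correlated best with the shControl library of their own number. By contrast, shACSL4 1 correlated best with shControl 2 (0.130). All other pairs of unlike number were negative, between -0.204 and -0.0124. With a replicate block 5163 genes changed, against 4155 without it, and 13 interferon signalling genes were higher. The fitted log2 fold change of Ifi207 was 5.17 with the block.

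Depth limits Ifi208, Ifi206 and Ifi205, whose control libraries held few or no reads.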

Other observations

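Outside the PYHIN family, 16 tested genes had a promoter with the exact letters GAAATCGAA, and 6 of them (37.5%) were higher and 1 lower in shACSL4, with a median log2 fold change of 0.06. Among the 10546 tested genes with a listed promoter, 15.6% were higher and the median was -0.01. The letters were chosen after the member promoters had been read, and no test was made of the difference between these shares.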
